A study of Mus musculus with 23 samples.

Results

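In mouse bone marrow-derived macrophages (BMDMs) exposed to LPS, the mRNA levels measured by RNA-seq after 6 h were compared with those after 4 h, gene by gene, to find which induced mRNAs had already declined and which were still rising. All genes of the deposited table whose mean level over the 10 RNA-seq libraries reached 10 RPKM were included, RPKM being reads scaled to the length of the transcript and to the depth of the library. This rule kept 4805 of the 6397 genes in the table and left out 1592. Each time point was represented by 2 cultures, A and B.

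The macrophages were grown for 7 days from bone marrow of C57BL/6 mice in DMEM with 10% FBS and 20% L929 supernatant, a source of macrophage growth factor. The 4 h and 6 h groups both received 100 ng/ml LPS and differed in the duration of the exposure. Untreated cells (0 h) and cells after 1 h and 2 h of the same LPS dose served to describe when each mRNA was induced. Part of every culture was used for Ribo-seq, which sequences ribosome-protected fragments (RPFs), and a separate CLIP-seq experiment on macrophages of Zfp36-V5 knock-in mice recorded RNA fragments bound by tagged Zfp36 after 4 h of LPS. Per the study's methods the animals were 8 to 12 weeks old, and their sex is not given in the sources used here.

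LPS, the lipopolysaccharide of Gram-negative bacterial envelopes, is sensed by Tlr4 and activates NF-kB, MAP kinases and interferon regulatory factors, which switch on cytokine, chemokine and antiviral genes in successive waves. The level of an mRNA in such a wave depends on its synthesis and on its decay. Many cytokine mRNAs carry AU-rich elements in the 3′ UTR, which are bound by proteins such as Zfp36 (tristetraprolin), known to repress its targets and to speed up their deadenylation and decay.

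The number of reads assigned to the genes of the table was 12753559 and 13642134 in the 4 h libraries and 12899077 and 16243070 in the 6 h libraries, against 5424649 to 8849857 in the libraries of earlier time points. Every gene had at least 1 read in every library, so mRNAs without reads in resting cells are not among the 6397. The fewest reads of any tested gene in a 4 h or 6 h library were 7, and the median over genes of this lowest value was 751. Replicate libraries correlated across genes with r of 0.989 to 0.996 on the log2(RPKM + 1) scale. The 4 h replicates differed by a median of 0.159 on that scale, with B the higher, which was more than at the other times (up to 0.057). All 10 macrophage markers examined were present, with summed levels of 8398.8 to 10849.7 RPKM (4 h) and 8873.6 to 11058.5 RPKM (6 h). None of the neutrophil, T cell, B cell, NK cell, dendritic cell, erythroid or mast cell markers was in the table, and of the fibroblast markers only Col1a1 was, at 0.8 to 1.4 RPKM. Since the table holds only genes with reads in every library, absence from it does not show absence from the cells.

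From 4 h to 6 h, 695 mRNAs rose (14.5% of those tested) and 1272 fell (26.5%), by limma on log2(RPKM + 1) with adjusted p under 0.05 (Benjamini-Hochberg over all 4805 genes). Changes are given as differences in log2(RPKM + 1), 6 h minus 4 h, and paired levels are those of cultures A and B in that order. The change was at least 2-fold on this scale for 93 of the mRNAs that rose and 185 of those that fell. The median over all genes was -0.115, with quartiles of -0.35 and 0.13, so a typical mRNA took a slightly smaller part of the reads at 6 h. Without 4 h replicate B, 802 genes were called lower. Centring all libraries on their medians gave 1060 rises and 941 falls, and the share of higher genes among those called went from 35.3% to 53.0%. RPKM is a share of the reads and cells were not counted, so fewer cells, or less RNA per cell, cannot be told apart from the same amount per cell.

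Most mRNAs that rose were at their highest of the time course at 6 h (472 of 695), while 151 were highest in untreated cells and were therefore coming back up. Of the 1272 that fell, 784 had their highest mean in untreated cells, while 92 peaked after 1 h of LPS, 157 after 2 h and 239 after 4 h. The calls themselves require that 0 of the falls peaked at 6 h and 0 of the rises at 4 h. A highest mean in untreated cells was also common without a call. Among genes in none of the groups defined below, it was found in 1568 of 2536 not called, 774 of 1072 that fell and 97 of 439 that rose. Plotted against the level at 4 h, large changes were found from the lowest to the highest levels.

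**Figure D1:**
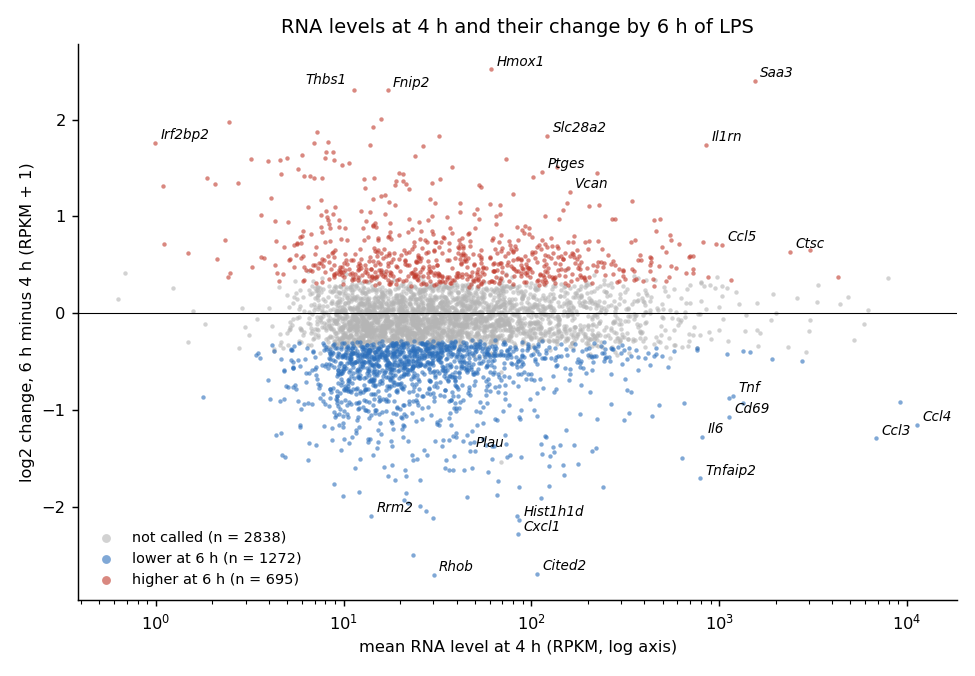
Each point is 1 of the 4805 genes, with its mean RNA level at 4 h (RPKM, log axis, mean of 2 libraries) across and its log2(RPKM + 1) change from 4 h to 6 h upward. Red marks the 695 genes that rose, blue the 1272 that fell and grey the 2838 that were not called. Hmox1 (2.52) and Saa3 (2.40) lie at the top, Rhob (-2.70) and Cited2 (-2.69) at the bottom.

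To separate induced from other mRNAs, genes were grouped by the 0 h, 1 h and 2 h libraries, requiring a log2 rise of at least 1 over 0 h with adjusted p under 0.05 in the same limma fit. Among 194 genes induced within 1 h, 70 fell and 55 rose between 4 h and 6 h, with a median change of -0.15. With median centring 204 genes met the 1 h rule, of which 63 were called lower and 69 higher. Among 179 genes induced at 2 h but not 1 h, 67 fell and 37 rose, with a median of -0.16. A group of 260 genes was called late-induced because their RPFs, in libraries of the same cultures, had risen by 4 h while their RNA had not met the rule by 2 h. Of these, 49 fell and 99 rose, with a median of 0.15. Late-induced genes that were low until 2 h could pass the filter on mean level through their 4 h and 6 h values. The part of the filter in their share of rises was not tested, and they were not recounted with a stricter filter. The rises of the early genes numbered 36 without 6 h replicate B, and those of the genes induced at 2 h numbered 24 if 6 h replicate A was left out and 23 if replicate B was. Set beside the shares over all genes, 36.1%, 37.4% and 18.8% of the 3 groups fell and 28.4%, 20.7% and 38.1% rose.

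**Figure D2:**
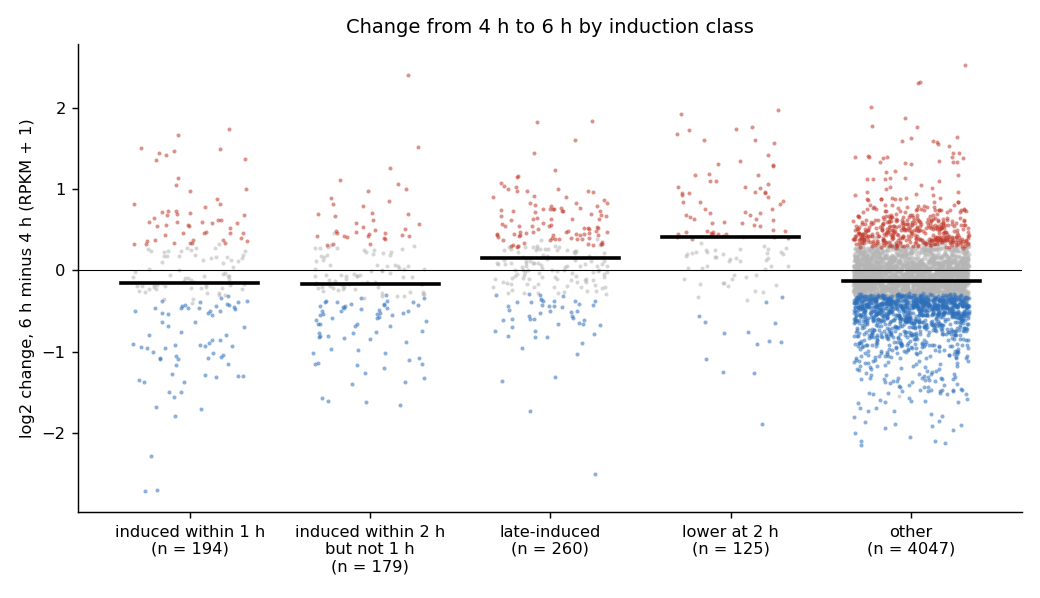
The log2(RPKM + 1) change from 4 h to 6 h (vertical axis) is plotted for each gene in 5 groups defined by their course from 0 h, red for genes that rose, blue for genes that fell and grey for genes not called. The thick line is the group's median, from -0.16 in genes induced within 2 h to 0.42 in genes that were lower at 2 h than at 0 h.

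The mRNAs induced within 1 h and falling by 6 h included chemokines, cytokines, transcription factors and signalling proteins. By 6 h their median level was 52.7% of that at 4 h. Of these 70 mRNAs, 21 peaked after 1 h of LPS, 18 after 2 h and 31 after 4 h. At 6 h 56 were still above the 0 h level, whereas 7 were already below it.

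Cxcl1, a neutrophil-attracting chemokine, illustrates an early peak. Its level was 1.73 and 1.04 RPKM (0 h), 1067 and 1168 (1 h), 479 and 484 (2 h), 77.4 and 92.8 (4 h), and 17.2 and 16.0 (6 h) in cultures A and B. It thus dropped at each step after 1 h, and the change from 4 h to 6 h was -2.28 (SE 0.14, limma adjusted p = 2.16e-08), leaving 19.5% of the 4 h level. Cxcl2, encoded beside it on chromosome 5 and acting on the same receptor, went from 3202 and 3233 RPKM (1 h) to 593 and 670.0 (4 h) and 249.6 and 199 (6 h), a change of -1.50, SE 0.14, adjusted p = 1.13e-06.

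Tnf, the cytokine that gave the TNF superfamily its name, was at 58.1 and 56.9 RPKM (0 h), 3549 and 3402 (1 h), 1488 and 1356 (2 h), 1091 and 1294 (4 h), and 676 and 639 (6 h). Both 6 h cultures lay below both 4 h cultures, with a change of -0.85 (SE 0.12, limma adjusted p = 6.29e-05). Such separation adds nothing to a call, as the replicates did not overlap in 1966 of the 1967 genes called. With 2 libraries on each side it can also occur in genes without a change, and its share over all genes is not given here. Il6, which drives the hepatic acute-phase response, peaked later, rising from 0.668 and 1.00 RPKM (0 h) to 773 and 845 (4 h) before dropping to 341 and 325 (-1.28, SE 0.12, adjusted p = 9.39e-07). The monocyte-attracting chemokines Ccl3 and Ccl4 also had their highest mean at 4 h. Ccl3 stood at 6027 and 7628 RPKM (4 h) and 2768 and 2759 (6 h), a change of -1.29. Ccl4, with the highest level of any mRNA at 4 h, went from 10867 and 11834 to 5376 and 4828 RPKM, a change of -1.15. Cxcl10, a T cell-attracting chemokine induced by interferons, went from 8300.1 and 10071 to 4856 and 4817 RPKM (-0.92, adjusted p = 0.000752). For these mRNAs, the level at 6 h was still far above that of resting cells.

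Other early mRNAs dropped below their starting level. Rhob, a small GTPase of endosomes, was at 19.4 and 12.6 RPKM (0 h), 126 and 142 (2 h), 28.3 and 32.0 (4 h), and 3.75 and 3.80 (6 h), the largest fall of the comparison (-2.70, SE 0.16, limma adjusted p = 1.95e-08). Its 6 h level was also lower than that at 0 h (-1.80, adjusted p = 3.8e-08). Cited2, a transcriptional co-regulator that competes for CBP and p300, remained at 92.4 and 121 RPKM (4 h) and then stood at 14.4 and 16.8 (-2.69, SE 0.14, adjusted p = 7.39e-09). Rgs1, a regulator of G protein signalling, went from 109 and 138 to 33.0 and 36.8 RPKM (-1.79), below its untreated 75.3 and 92.6. Tnfaip2 (735 and 852 to 248 and 236 RPKM, -1.70) and Ripk2, the kinase of NOD receptor signalling (135 and 164 to 45.4 and 46.3 RPKM, -1.68), were the next in size.

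Not every early cytokine was called. Il1b, encoding interleukin-1β, was at 2623 and 3188 RPKM (4 h) and 2132 and 2262 (6 h), a change of -0.40 (SE 0.23, limma adjusted p = 0.177), but it was called in 4 of 19 other settings, with adjusted p down to 0.00444. Il10, the anti-inflammatory cytokine, was at 202 and 199 RPKM (4 h) and 147 and 149 (6 h), a change of -0.43, SE 0.15, adjusted p = 0.0352, a call that was lost in 6 of 19 other settings, with adjusted p up to 0.158. Zfp36 itself, at 205 and 266 and then 179.6 and 199.95 RPKM, was not called (-0.30, adjusted p = 0.104). The mRNA of Pabpc1, the poly(A)-binding protein, was at 152 and 182 RPKM and then at 125 and 134, and was not called either (-0.36, adjusted p = 0.0915). Each was called lower in 3 of 20 other settings, a replicate block and voom on the recovered reads among them, with limma adjusted p down to 0.0236 (Zfp36) and 0.0189 (Pabpc1).

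Among the 55 early mRNAs that rose again or went on rising, 37 reached their highest level at 6 h. Il1rn, which encodes the receptor antagonist of interleukin-1, climbed at every step, from 18.02 and 14.1 RPKM (0 h) to 52.7 and 59.2, 129 and 141, 797 and 909, and 2655 and 3053 (6 h). Its gain between 4 h and 6 h was 1.74 (SE 0.14, limma adjusted p = 1.65e-07) and amounted to 3.35-fold. Ptges, the terminal synthase of prostaglandin E2, went from 120.3 and 108 to 341 and 293 RPKM (1.46, adjusted p = 1.23e-06). Ccl5, a chemokine for T cells and monocytes, went from 937 and 1135 to 1677 and 1696 RPKM (0.71, adjusted p = 0.00245), while Ccl3 and Ccl4 fell. Adora2b, an adenosine receptor (1.51), and Il17ra, the interleukin-17 receptor (1.45), were also in this group.

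Some early mRNAs showed a second rise after a dip. Fosl2, an AP-1 subunit, was at 24.5 and 26.6 RPKM (1 h), 7.09 and 9.09 (4 h), and 26.3 and 28.9 (6 h), a change of 1.66, SE 0.15, limma adjusted p = 8.42e-07. Dusp1, the phosphatase that switches off p38 and JNK, was at 300.4 and 287 RPKM (1 h), 160.4 and 162 (4 h), and 239 and 249 (6 h), a change of 0.59, adjusted p = 0.000694. Ier3, an early response gene, similarly passed from 128 and 159.9 RPKM (1 h) through 63.9 and 73.7 (4 h) to 109 and 106 (6 h), a change of 0.64. Of the 55 genes that rose, 11 had peaked after 1 h and 7 after 2 h.

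**Figure D3:**
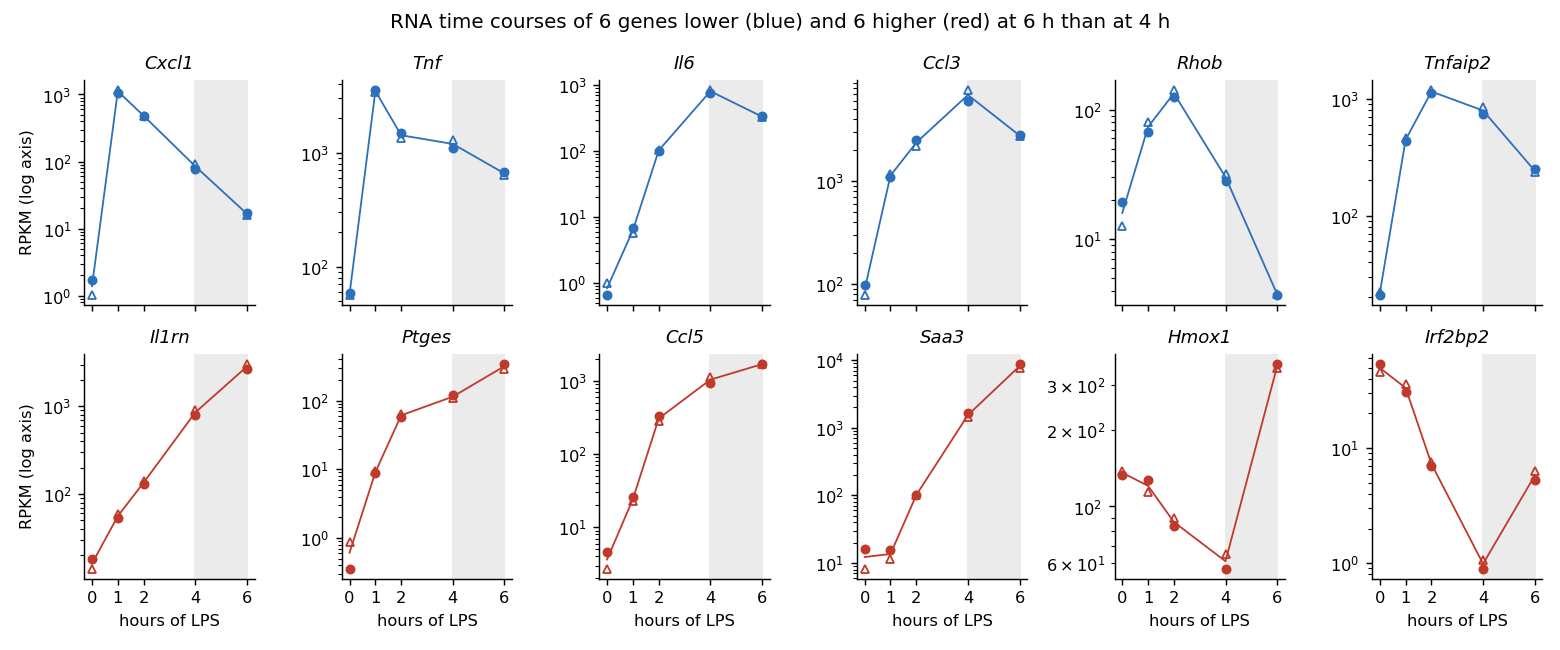
RNA levels (RPKM, log axis) of 12 genes are plotted against hours of LPS, with filled circles for culture A, open triangles for culture B, lines through the means and grey shading over the interval from 4 h to 6 h. Cxcl1 and Tnf passed their maximum at 1 h, Rhob and Tnfaip2 at 2 h, Il6 and Ccl3 at 4 h, whereas Il1rn, Ptges, Ccl5 and Saa3 climbed to the last time point and Hmox1 and Irf2bp2 turned upward after 4 h.

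Of the mRNAs induced at 2 h but not 1 h, the 67 that fell included Cebpd, a C/EBP transcription factor (199 and 245 to 83.3 and 83.9 RPKM, -1.39), Swap70, an actin-binding signalling protein (131 and 165 to 49.6 and 48.5 RPKM, -1.57), and Stat5a, a transcription factor of cytokine signalling (55.5 and 55.3 to 25.6 and 23.8 RPKM, -1.13). At 6 h 51 of the 67 were still above the 0 h level. Saa3, an acute-phase serum amyloid, led those that rose. It was at 16.2 and 8.26 RPKM (0 h), 15.6 and 11.6 (1 h), 100.1 and 102 (2 h), 1655 and 1434 (4 h), and 8786 and 7551 (6 h). The 5.29-fold gain from 4 h to 6 h (2.40, SE 0.21, limma adjusted p = 5.27e-07) continued a climb of every earlier interval after 1 h. Il4ra, the interleukin-4 receptor chain, went from 148 and 125 to 407 and 374 RPKM (1.51), Vcan, a large proteoglycan, from 166 and 155 to 362 and 406 RPKM (1.25), and Fcgr2b, the inhibitory Fc receptor, from 238 and 221 to 505 and 488 RPKM (1.11).

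The late-induced genes are described by their largest changes. Slc28a2, a nucleoside transporter, was at 5.19 and 5.59 RPKM (2 h), 139 and 105 (4 h), and 464 and 401 (6 h), a change of 1.83, SE 0.14, limma adjusted p = 1.56e-07. Procr, the endothelial protein C receptor, went from 31.1 and 33.1 to 120.0 and 113 RPKM (1.83), and Cfb, complement factor B, from 76.1 and 70.2 to 230.0 and 217 RPKM (1.60). In both, all 6 h values lay above all 4 h values, a separation shared by nearly all called genes. Ankrd44, a regulatory subunit of protein phosphatase 6, was the exception in size, with 22.1 and 24.5 RPKM (4 h) and 3.20 and 3.40 (6 h), a change of -2.50, adjusted p = 3.77e-09.

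A further group, defined after the data had been seen, comprised 125 mRNAs that were at least 2-fold lower at 2 h than at 0 h. Here 65 rose between 4 h and 6 h and 14 fell, with a median of 0.42, and 54 of the 65 were still highest at 0 h. Irf2bp2, a co-repressor of interferon regulatory factor 2, was at 53.7 and 45.7 RPKM (0 h), 7.05 and 7.52 (2 h), 0.898 and 1.08 (4 h), and 5.23 and 6.29 (6 h), a change of 1.76, limma adjusted p = 1.23e-07, so it recovered while staying below the untreated level. Rab7b, a lysosomal GTPase known to promote Tlr4 degradation, went from 169 and 166 RPKM (0 h) to 14.8 and 13.9 (4 h) and 58.5 and 55.9 (6 h), a change of 1.92. Cd300lb, an activating receptor of myeloid cells, showed the same recovery (9.97 and 7.68 to 29.9 and 30.3 RPKM, 1.67). March1, a ubiquitin ligase for MHC class II and Cd86, instead overshot, from 7.32 and 13.4 RPKM (0 h) to 28.6 and 24.0 (4 h) and 87.3 and 91.0 (6 h), a change of 1.73. At the other end, Rgs2 went from 55.8 and 76.1 to 17.7 and 16.3 RPKM (-1.88) and Hpgd, the prostaglandin-degrading dehydrogenase, from 11.2 and 12.1 to 3.86 and 4.87 RPKM (-1.24).

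The largest rise of all belonged to Hmox1, heme oxygenase 1, which degrades heme and belongs to the antioxidant response. Hmox1 had declined under LPS, from 133 and 138 RPKM (0 h) to 83.8 and 90.1 (2 h) and 57.1 and 64.9 (4 h), before it reached 361 and 347 (6 h). The change was 2.52 (SE 0.11, limma adjusted p = 2.7e-09), a gain of 5.80-fold, and put it above the untreated level. Thbs1, the matrix glycoprotein thrombospondin 1, went from 12.5 and 10.1 to 58.9 and 60.7 RPKM (2.31). Fnip2, a partner of folliculin in nutrient signalling, went from 16.3 and 17.9 to 85.9 and 90.8 RPKM (2.30), reversing a decline from 51.8 and 63.0 (0 h).

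To follow these genes to their sequence, the deposited Zfp36 peaks were placed on the mm10 genome. A total of 280 mRNAs had a peak, 133 of them were in the table and 108 were tested, of which 22 rose (20.4%) and 27 fell (25.0%), shares near those over all genes, with a median of -0.06. In the mRNAs that fell, 19 of 27 peaks lay in the 3′ UTR and 10 held the heptamer TATTTAT, the core of the AU-rich element known to be bound by Zfp36. In those that rose, 12 of 22 lay in the 3′ UTR and 6 held the heptamer. In those not called, 26 of 59 lay in the 3′ UTR and 12 held the heptamer. The other peaks lay mainly in introns, 7 in mRNAs that fell, 10 in mRNAs that rose and 27 in those not called. All 29 peaks with a heptamer, over all 280 mRNAs, were in the 3′ UTR. Of the 280 peaks, 189 lay in introns and 64 in the 3′ UTR of the transcript used here, whereas the paper places most peaks in 3′ UTRs.

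Target sites of Zfp36 are shown for the chemokine and cytokine mRNAs that fell and for Dusp1, which rose, because an AU-rich site was present in both directions. Each line gives up to 30 bases of the peak, on the strand of the mRNA, with the heptamer in capitals. The sites lie in mm10 at chr5:90892748-90892777 (Cxcl1), chr5:90905880-90905900 (Cxcl2), chr5:30019728-30019750 (Il6), chr11:83648002-83648031 (Ccl3, minus strand), chr11:83664542-83664571 (Ccl4), chr17:35199707-35199736 (Tnf, minus strand), chr1:131024827-131024850 (Il10) and chr17:26506158-26506187 (Dusp1, minus strand).
Cxcl1: cattaaactaaTATTTATtgggagaccact
Cxcl2: gtggacacattTATTTATtca
Il6: tttatgattgaTATTTATtattt
Ccl3: gtatttgtgacTATTTATtctgaaagactt
Ccl4: attatttctatTATTTATgttttagttata
Tnf: cagcccccctcTATTTATatttgcacttat
Il10: ggccagtttgtTATTTATaaccac
Dusp1: gagctggtcctTATTTATttaacacccccc

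The Tnf peak held 8 heptamers, overlapping ones counted, and those of the other mRNAs shown held 1 each. It was also the longest peak of those shown, at chr17:35199401-35200400, against chr5:90905851-90905900 for Cxcl2. The counts are therefore not comparable as they stand. With the changes given above, sites with the same heptamer belonged to mRNAs that changed by -2.28 (Cxcl1), -1.50 (Cxcl2), -0.43 (Il10) and 0.59 (Dusp1) over the same 2 h. Cdkn1a, the p21 inhibitor of cyclin-dependent kinases, had a 3′ UTR peak with only TATTTA and fell from 198 and 252 to 102 and 107 RPKM (-1.09). Among bound mRNAs that rose, Abca1 (1.62), Peak1 (1.39) and Rab31 (1.33) had intronic peaks, those of Ralgds (0.73) and Ier3 (0.64) lay in the 3′ UTR, and these peaks held no heptamer.

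Over whole 3′ UTRs of RefSeq transcripts, TATTTAT occurred in 26.6% of all tested genes. Among genes induced within 1 h it occurred in 58.6% of those that fell and 49.1% of those that rose, at 0.882 and 0.53 sites per kb. The share was 47.8% and 24.3% for those induced at 2 h, and 57.1% and 14.3% for the late-induced genes. In genes not called it was 44.9% (induced within 1 h), 37.8% (induced at 2 h) and 32.1% (late-induced). UTR length moved with the share in the late-induced mRNAs, with a median of 1940 bases in those that fell and 797.5 in those that rose. It also did so in genes induced at 2 h (1553 and 884 bases), but not in genes induced within 1 h (1228 and 1407 bases). The part of UTR length in the difference was not tested. Per kb, the late-induced values were 0.352 and 0.205, against 0.293 over all genes.

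Promoter windows of RefSeq GRCm38.p6, 250 bases before to 50 after the start site, were found for 3921 of the tested genes. A kB motif, the element bound by NF-kB, matched in 6.3% of them, in 24.1% of the early-induced genes that fell and in 16.3% of those that rose. It matched in 19.6% of the early-induced genes not called. In genes induced at 2 h it matched in 6 of 58 that fell (10.3%), 5 of 26 that rose (19.2%) and 2 of 57 not called (3.5%). For late-induced genes the counts were 3 of 38 (7.9%), 8 of 83 (9.6%) and 6 of 93 (6.5%) in the same order. These counts are small, and the differences in share were not tested. The interferon-stimulated response element GAAANNGAAA, searched on both strands as was the kB motif, matched in 4.7% of all windows and in 17.0% of those induced at 2 h. A match is a description of the letters and not a bound site. The windows of Cxcl1 and Cxcl2, which fell, and of Il4ra and Saa3, which rose, are printed with these matches in capitals, a kB motif in the first 3 and a response element in Saa3. They cover chr5:90890995-90891294, chr5:90903649-90903948, chr7:125552021-125552320 and, on the minus strand, chr7:46715627-46715926.
Cxcl1: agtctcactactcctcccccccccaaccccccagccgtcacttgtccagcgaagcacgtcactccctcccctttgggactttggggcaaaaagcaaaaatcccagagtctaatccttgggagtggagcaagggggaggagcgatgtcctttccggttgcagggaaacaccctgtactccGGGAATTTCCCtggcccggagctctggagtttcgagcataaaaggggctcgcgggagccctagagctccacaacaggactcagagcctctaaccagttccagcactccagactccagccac
Cxcl2: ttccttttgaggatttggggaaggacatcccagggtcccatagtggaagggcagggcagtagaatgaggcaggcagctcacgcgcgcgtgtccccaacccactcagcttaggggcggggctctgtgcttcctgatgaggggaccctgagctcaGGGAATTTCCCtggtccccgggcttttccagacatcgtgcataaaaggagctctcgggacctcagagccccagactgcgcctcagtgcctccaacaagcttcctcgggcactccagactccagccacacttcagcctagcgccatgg
Il4ra: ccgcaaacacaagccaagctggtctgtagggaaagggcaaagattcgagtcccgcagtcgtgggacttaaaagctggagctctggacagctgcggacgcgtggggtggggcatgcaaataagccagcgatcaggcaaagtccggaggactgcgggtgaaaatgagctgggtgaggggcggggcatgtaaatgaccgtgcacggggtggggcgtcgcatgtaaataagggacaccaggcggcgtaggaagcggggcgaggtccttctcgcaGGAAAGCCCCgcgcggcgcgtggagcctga
Saa3: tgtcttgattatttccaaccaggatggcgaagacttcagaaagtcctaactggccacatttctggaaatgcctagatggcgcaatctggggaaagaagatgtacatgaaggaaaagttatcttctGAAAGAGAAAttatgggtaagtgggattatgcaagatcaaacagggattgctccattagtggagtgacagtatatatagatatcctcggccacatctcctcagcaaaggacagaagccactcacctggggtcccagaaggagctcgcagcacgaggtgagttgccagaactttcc

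The counts in the gene lists that follow are to be read beside the shares over all genes, 14.5% higher and 26.5% lower. Cytokine and chemokine genes moved in both directions. Among the 6 CXC chemokines tested, 4 fell, 0 rose and the median was -0.68, the smallest fall being that of Cxcl14 (-0.44), which was not called in every setting. Among 11 CC chemokines and receptors, 4 fell (Ccl2, Ccl3, Ccl4 and Ccrl2) and 5 rose, among them Ccl5, Ccl6, Ccl9 and Ccr1. Ccr1, a receptor for Ccl3 and Ccl5, went from 11.8 and 9.43 to 33.4 and 32.3 RPKM (1.55, limma adjusted p = 1.65e-07). In the interleukin-1 and inflammasome list, Il1rn, Casp1, Casp4 and Gsdmd rose, while Il1a (-0.44) and Nlrp3 (-0.50) fell, and 1 gene of the list was called lower with median centring or if 4 h replicate B or either 6 h library was left out. The other cytokines and colony-stimulating factors split evenly, with 6 rises (3 without 6 h replicate B) and 6 falls among 13 genes. Csf1, the growth factor of macrophages, went from 108 and 117 to 43.5 and 43.5 RPKM (-1.35), and Il27 by -0.93, whereas receptors made up most of the rises (Il4ra, Ifngr2, Ifnar2, Il7r and Ifnar1). The interferon-γ receptor chains parted, Ifngr1 at -0.78 and Ifngr2 at 0.76. In the TNF superfamily, Tnf fell and the receptors Tnfrsf1b (0.72) and Tnfrsf1a (0.29) rose, the latter call being lost in 10 of 20 settings.

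Among signalling genes, 7 of 22 NF-kB subunits and inhibitors fell (31.8%, beside 26.5% of all genes) and 2 rose (9.1%, beside 14.5%), with a median of -0.21. Rel, the c-Rel subunit, went from 57.3 and 65.8 to 22.5 and 23.6 RPKM (-1.37, limma adjusted p = 1.67e-07), Nfkbiz, the nuclear co-activator IκBζ, from 244 and 286 to 138 and 138 RPKM (-0.94), and Nfkb1, encoding p105, from 192 and 231 to 140.1 and 139 RPKM (-0.59). Nfkbia, encoding IκBα, was not called (-0.17). Among the 7 interferon regulatory factors, 5 fell, including Irf1 (290.4 and 357 to 183 and 187 RPKM, -0.79), Irf2 and Irf5, while Irf7, the amplifier of type I interferon production, rose (337 and 378 to 608 and 599 RPKM, 0.75). Leaving out single 4 h or 6 h libraries took the falls among interferon regulatory factors to 2 (4 h replicate B) or 3 (6 h replicate A), those among NF-kB genes to 4 (4 h replicate B or 6 h replicate B) or 3 (6 h replicate A), and the NF-kB rises, Tnip1 and Tnip3, to 0 (4 h replicate A or 6 h replicate B). Stat5a and Stat5b fell, and Stat2 and Stat3 rose. Of 10 MAP kinase phosphatases and feedback regulators, Dusp1 and Dusp7 rose (1.59 for Dusp7) and Spred1 fell (-0.31), a call lost in 5 of 20 settings. In the Toll-like receptor list, Tlr2 went from 338 and 321 to 167 and 154 RPKM (-1.03), whereas Tlr3, Tlr7, Tlr8 and Tlr13 of the endosome, and Irak3, an inhibitor of the pathway (15.4 and 19.5 to 37.1 and 42.4 RPKM, 1.15), rose, and without 4 h replicate A 3 genes of that list were lower.

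RNA-binding regulators of cytokine mRNAs were examined as their own list, of which 46.2% fell and 15.4% rose, beside 26.5% and 14.5% of all genes. Of 13 AU-rich element binders and endonucleases, 6 fell (3 without 4 h replicate B) and 2 rose, with a median of -0.36. The rises numbered 1 with library weights or if any one of the 2 h, 6 h or 4 h replicate A libraries was left out. Rc3h1, which encodes Roquin-1, went from 22.5 and 27.1 to 11.6 and 13.1 RPKM (-0.95) and Zc3h12c from 31.8 and 36.5 to 17.8 and 18.9 RPKM (-0.86). Zc3h12d, of the same Regnase family, went from 6.04 and 7.11 to 18.5 and 20.0 RPKM (1.42), and Zc3h12a, Regnase-1, rose by 0.33. In the transcription factor lists, Fosl2, Ier2 and Ier3 rose and Jun, Atf3 and Csrnp1 fell (1 gene lower if 4 h replicate B was left out) among 13 immediate early genes. The immediate early list thus had 23.1% higher and 23.1% lower, beside 14.5% and 26.5% of all genes. Of 16 macrophage transcription factors, 5 rose (31.2%) and 2 fell (12.5%). Those that rose included Maf (0.70) and Nfe2l2, the regulator of antioxidant genes (0.56), and the largest fall was -1.39. With median centring 7 were called higher and 1 lower. Spi1, encoding PU.1, was not called (-0.01).

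Interferon-induced genes did not move as a block. Of 37 antiviral effectors, 11 rose (29.7%, beside 14.5% of all genes) and 6 fell (16.2%, beside 26.5%). Their median was 0.25, and with median centring 17 were called higher. Ifi44 (62.9 and 67.3 to 127 and 136 RPKM, 1.00), Bst2, the virion-tethering protein tetherin (545 and 564 to 953 and 919 RPKM, 0.75), and Isg20 (0.70) rose. Ifit1, a sensor of foreign RNA caps, went from 1043 and 1227 to 584 and 646 RPKM (-0.88), and Ifit3b (-0.52), Trim21, Cmpk2, Parp14 and Dtx3l also fell, although Ifit3b shares sequence with Ifit3 and its reads may be split between the copies. Gbp2, Gbp3 and Gbp7, closely related GTPases that attack pathogen vacuoles, rose by 0.42 to 0.50, but each of the 3 calls was lost if 4 h replicate A or 6 h replicate B was left out.

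Lists of effector and secreted products held more rises than falls. Of 15 enzymes and transporters for small molecules, 9 rose and 3 fell, with a median of 0.46, although the falls numbered 0 without 6 h replicate B and 1 without any one of the other 4 h or 6 h libraries. Nos2, the inducible nitric oxide synthase, was at 231 and 262 RPKM (4 h) and 309 and 339 (6 h), a change of 0.40, limma adjusted p = 0.0287, and Slc7a2, the arginine transporter, at 178 and 157 and then 289 and 294 RPKM (0.80). Ptgs2, encoding cyclooxygenase 2, fell by 0.42 on the log2 scale while Ptges, the next enzyme of the same route, rose. Among 14 acute-phase, complement and secreted proteins, 7 rose (Saa3, Thbs1, Cfb, Vcan, Mmp14, Mmp13 and C3), and Plau, the urokinase, fell from 41.0 and 53.4 to 16.3 and 17.3 RPKM (-1.42) after 421 and 430.3 (0 h). The 3 C1q chains lay between 0.01 and 0.10 and were not called. Of 16 proteasome and antigen presentation genes, 8 rose and 0 fell, with Tap2, the peptide transporter, the largest at 134 and 124 and then 221 and 198 RPKM (0.69). The rises numbered 3 if 6 h replicate A was left out, and 5 or 4 if the 4 h library A or B was. MHC class II genes (H2-Aa, H2-Ab1, H2-Eb1 and Cd74) lay between -0.09 and 0.23 and were not called.

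On the cell surface, 9 of 21 receptors rose and 2 fell. The Fcγ receptors Fcgr1, Fcgr2b, Fcgr3 and Fcgr4 rose together (0.97, 1.11, 0.74 and 0.97), as did the co-stimulator Cd86 (47.4 and 44.1 to 79.6 and 83.0 RPKM, 0.82). Cd69, an early activation antigen, went from 1126 and 1135 to 569 and 507 RPKM (-1.07, limma adjusted p = 0.000293), and Icam1, the adhesion ligand, fell by 0.93 on the log2 scale. Of 38 lysosomal genes, 7 rose (18.4%, beside 14.5% of all genes) and 2 fell (5.3%, beside 26.5%). Fewer rose if 4 h replicate A or either 6 h library was left out.

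In glycolysis and glucose uptake, 6 of 20 genes rose and 2 fell: Slc2a1, the glucose transporter Glut1, went from 86.3 and 82.1 to 165 and 151 RPKM (0.90), Hk3 rose by 0.88, Pfkfb3 by 0.81 and Slc16a3, the lactate exporter, by 0.80, but Hk2 fell (-0.60), and the central enzymes Aldoa, Gapdh, Pgk1, Pkm and Ldha were not called (-0.14 to 0.02). In the cholesterol list 12 of 16 genes fell and 2 rose. Both efflux transporters rose, Abca1 from 26.1 and 22.2 to 74.3 and 78.3 RPKM (1.62, limma adjusted p = 1.71e-07) and Abcg1 from 31.1 and 30.1 to 70.4 and 66.8 RPKM (1.14). Those that fell included Sqle, the squalene epoxidase of cholesterol synthesis (15.2 and 13.6 to 7.26 and 6.67 RPKM, -0.95), and its regulators Insig1 (-0.80) and Srebf2 (-0.43). With median centring 8 genes of the list were called lower, and without 6 h replicate B the number was 5.

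**Figure D4:**
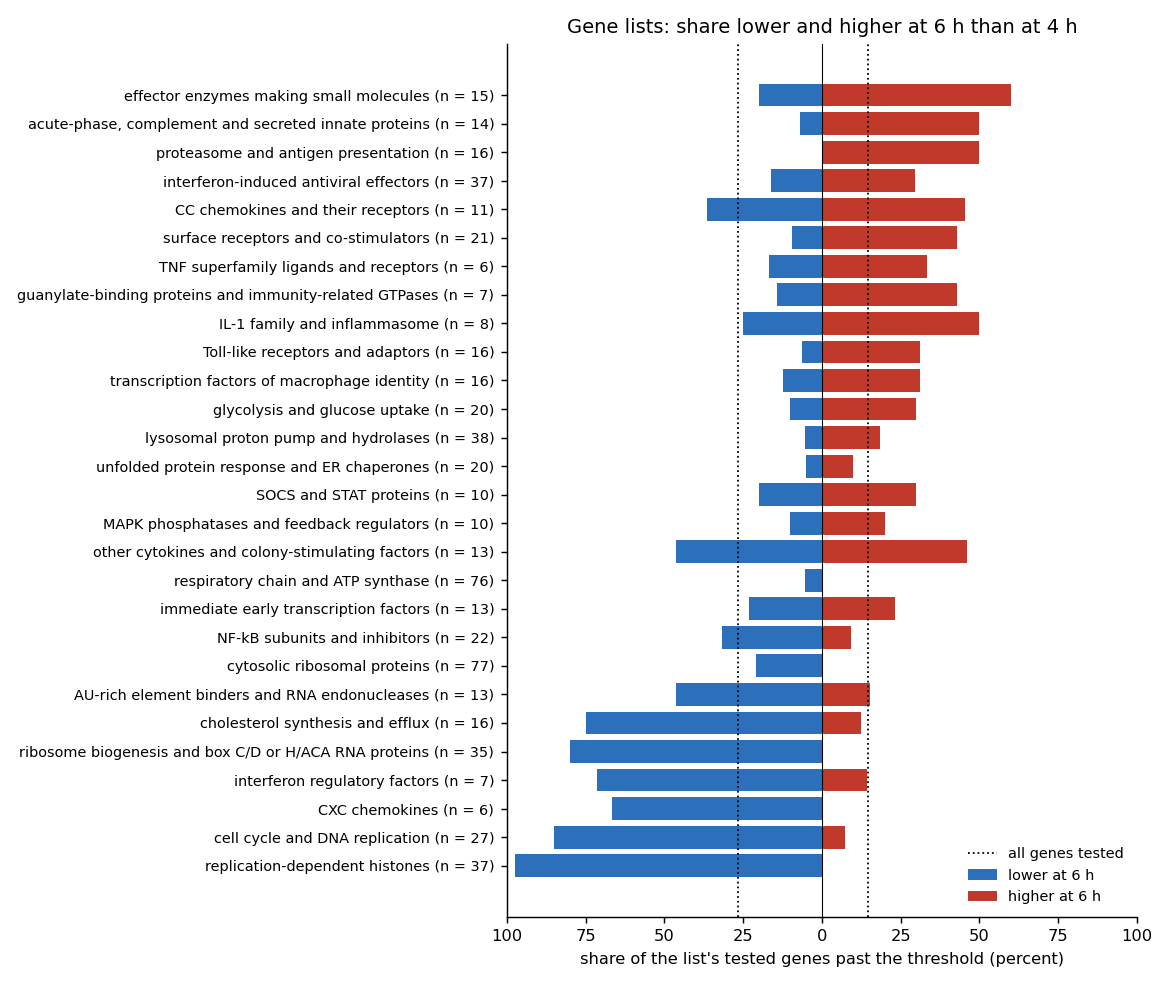
For each of 28 gene lists, the bar to the right gives the percent of tested members that rose from 4 h to 6 h and the bar to the left the percent that fell, with n the members tested. Dotted lines mark the shares over all genes (14.5% and 26.5%). Histone, cell cycle and ribosome biogenesis genes lie far to the left, effector enzymes and secreted proteins to the right.

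Nearly all histone mRNAs fell. Of 37 replication-dependent histone genes, a list added after the data had been seen, 36 fell and the remaining one, Hist1h2bf (-1.54, adjusted p = 0.0592), was not called, with a median of -1.50. Histone genes are near-identical copies, so single members are uncertain where reads were shared. Hist1h1d, a linker histone, was at 300.03 and 317 RPKM (0 h), 187 and 223 (2 h), 70.2 and 101 (4 h), and 16.0 and 21.0 (6 h), a change of -2.14, SE 0.16, limma adjusted p = 1.41e-07. Hist1h1b (70.2 and 96.7 to 18.3 and 18.9 RPKM, -2.09) and Hist1h3a (26.7 and 33.4 to 6.50 and 5.71 RPKM, -2.12) had similar courses.

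Histone mRNAs end in a stem-loop instead of a poly(A) tail, and since the RNA was depleted of rRNA and not selected for poly(A), they could be measured here. A stem-loop was found within 100 bases after the stop codon in 34 of the 37 genes, 21 to 55 bases after it, and 33 of the 36 that fell had one. The element is shown for 4 of the falling genes, on the mRNA strand with the stem and loop in capitals, at chr13:23555782-23555807 (Hist1h1d), chr13:21779832-21779857 (Hist1h1b, minus strand) and chr13:23761885-23761910 (Hist1h3a, minus strand), and chr13:23698084-23698109 (Hist1h4c, minus strand, -1.21).
Hist1h1d: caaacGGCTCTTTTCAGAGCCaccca
Hist1h1b: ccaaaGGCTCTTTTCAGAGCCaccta
Hist1h3a: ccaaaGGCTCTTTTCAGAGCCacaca
Hist1h4c: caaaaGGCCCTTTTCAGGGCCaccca

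Cell cycle and DNA replication genes followed the histones. Of 27 tested, 23 fell and 2 rose, with a median of -1.10. Rrm2, the ribonucleotide reductase subunit, was at 58.8 and 54.0 RPKM (0 h), 12.5 and 15.7 (4 h), and 2.52 and 2.49 (6 h), a change of -2.09, limma adjusted p = 1.71e-07, and Mcm7, of the replicative helicase, at 70.1 and 65.1, 19.7 and 24.2, and 5.03 and 4.69 (-1.96). All 6 Mcm genes tested fell, by -1.10 to -1.96. The 2 that rose were Ccnd3 (0.74) and Cdkn1b, the p27 inhibitor of cyclin-dependent kinases (0.44), neither of them called without 6 h replicate A. Cdkn1a fell although it had been induced within 1 h. In the promoter windows, the letters CCAAT on either strand occurred in 81.8% of 33 histone genes and 72.7% of the cell cycle genes, against 42.6% of all windows. Other lists also had high shares, 88.9% for cholesterol, 88.2% for unfolded protein response and 69.2% for proteasome and antigen presentation genes. The proteasome list held 0 falls, whereas ribosome biogenesis genes, most of which fell, had a share of 36.7%.

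Genes for ribosome production fell in different shares. Of 35 ribosome biogenesis genes, another list added after the data had been seen, 28 fell and 0 rose (median -0.52), led by Dkc1, the pseudouridine synthase of H/ACA particles (8.78 and 9.07 to 2.20 and 1.68 RPKM, -1.76), and Nop58, a box C/D core protein (19.3 and 22.9 to 6.31 and 6.06 RPKM, -1.62). Without 4 h replicate B, 18 passed. All 77 cytosolic ribosomal protein mRNAs had values below 0, from -0.47 to -0.01, with a median of -0.29, but only 16 passed the test (20.8%, beside 26.5% of all genes). Rps2, of the small subunit, was at 202 and 219 RPKM (4 h) and 163 and 144 (6 h), a change of -0.46. These calls were sensitive to scale and to single libraries, with 1 called lower under median centring and 0 without 4 h replicate B or 6 h replicate B. With a replicate block 44 were called, and with voom 38. Respiratory chain and ATP synthase genes had a median of -0.18, and 4 of 76 passed, against 16 if 4 h replicate A was left out, 7 without either 0 h library, 0 without 4 h replicate B and 1 when 6 h replicate B was omitted.

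**Figure D5:**
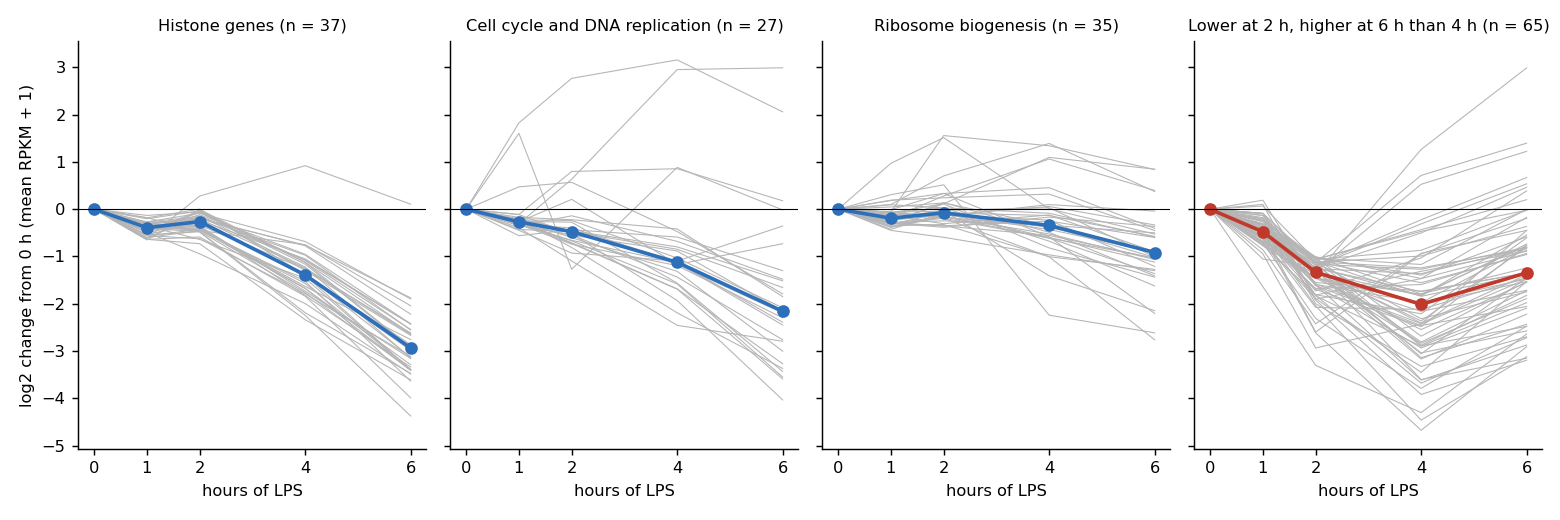
Log2 changes of the mean RPKM + 1 from 0 h are drawn against hours of LPS for single genes (grey) and their median (thick line) in 4 groups. The 37 histone, 27 cell cycle and 35 ribosome biogenesis genes went on declining from 4 h to 6 h, with median changes over that interval of -1.50, -1.10 and -0.52, whereas the 65 genes of the last panel turned upward.

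The Ribo-seq libraries of the same cultures gave a separate reading of the 4 h to 6 h change. They were shallower, with 2909260 and 1699040 reads (4 h) and 460860 and 2226055 reads (6 h), and over 5277 genes 1.36% were called higher and 3.05% lower. Of the mRNAs that rose, 678 were tested in RPFs and 65 were higher there too, 0 lower, with a median RPF change of 0.55 beside 0.54 for RNA. Of those that fell, 1211 were tested and 146 were lower, 0 higher, with a median of -0.69 beside -0.54. The total of 211 depended on single Ribo-seq libraries, being 14 if 4 h replicate B was left out, 22 if replicate A of that time was, and, for the 6 h libraries, 88 without A and 48 without B.

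At the level of single genes, RPFs passed in the same direction for Hmox1 (2.55, limma adjusted p = 0.000129), Saa3 (2.23, adjusted p = 0.000757), Il1rn (1.73, adjusted p = 0.00616) and Slc2a1 (1.00, adjusted p = 0.0258) among those that rose. Among those that fell they passed for Rhob (-3.92), Ccl3 (-1.72), Ccl4 (-1.22), Cxcl10 (-1.17), Tnf (-1.88, adjusted p = 0.0211) and Cxcl1 (-1.97, adjusted p = 0.0227). Il1b, whose RNA was not called, was lower in RPFs (4661 and 5316 to 2789 and 2847 RPKM, -0.82, adjusted p = 0.0211). The RPFs of Il6 (-1.64, adjusted p = 0.325) did not pass. For Irf7 the RNA rose while its RPFs were at 249.6 and 246 RPKM (4 h) and 138 and 152 (6 h), a change of -0.77, adjusted p = 0.302. The difference between the assays was not tested for any gene.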

How the data were processed

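RNA-seq (rRNA-depleted total RNA) and Ribo-seq were done on the same BMDM cultures. The authors trimmed reads with the FASTX-Toolkit, removed rRNA, tRNA and mitochondrial reads with Bowtie, aligned the rest to mm10 with TopHat and RefSeq models, counted them with HTSeq and deposited RPKM values for both assays. CLIP-seq reads were aligned with STAR, and the deposited peaks (Piranha, merged with HOMER) give a fold over input and pool the replicates.

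From the RPKM values, log2(RPKM + 1) was tested with limma 3.58.1 in R 4.3.3, with a mean-variance trend, time point as the factor and all 10 RNA libraries (5 residual degrees of freedom), two-sided, on genes with a mean of at least 10 RPKM. Adding 1 RPKM understates changes of low genes. RPFs were tested alike. The reads behind each RPKM were whole numbers for all 6397 genes in every library (tolerance 1e-06 read) and were tested by voom as an alternative. The scripts were checked on simulated data. Nothing states that A and B are separate animals, so p-values measure the spread between these cultures. No counting interval was computed for single values.

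Genes named are the largest changes over all genes, in each induction group, in each list and among CLIP targets, plus the genes central to the study. The members and lists were chosen with earlier results of these data known. Alternatives were other additions to RPKM, other filters, median centring, a replicate block, no trend, library weights, 4 h and 6 h libraries alone and leaving out each library. Promoters and UTRs came from RefSeq GRCm38.p6, which matched 4800 of the 4805 genes. Some genes are not reported here.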

Additional observations from a re-analysis of the deposited data

How the results depend on the processing

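With at least 10 RPKM required in every library of both assays, 2878 genes were tested, of which 396 were higher and 571 lower. Of 82 genes then induced within 1 h, 31 were lower and 25 higher, and of 81 induced at 2 h, 27 were lower and 16 higher. Of 22 genes that were lower at 2 h than at 0 h, 15 rose. Median centring gave 1060 higher and 941 lower. Without a filter 6397 genes were tested, and 106 of the 217 genes that were lower at 2 h than at 0 h rose. The induction groups were set anew in every fit that held all time points. Requiring a log2 induction of at least 2 left 40 lower and 19 higher genes induced within 1 h, and 21 lower and 28 higher genes induced at 2 h. Leaving out single libraries gave 472 to 717 higher and 802 to 1475 lower genes, 51 to 73 and 36 to 57 for lower and higher genes induced within 1 h, 48 to 70 and 23 to 42 for those induced at 2 h, 56 to 70 for recovering genes, and 14 to 371 for the mRNAs also called in RPFs. The cause was not tested.

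Same-lettered libraries deviated together by r of 0.091 to 0.542 across genes, with 0.498 between 4 h and 6 h, and 1 of the 10 values lay under the 0.1 required of all; the labels do not say what a letter marks, so the block was kept as an alternative. With a replicate block 800 genes were higher and 1520 lower, and 155 were also called in RPFs. The recovered reads tested by voom, an alternative chosen after seeing the data, gave 777 higher and 1595 lower. Of the 161 named genes that were called, 137 stayed called in every other setting run, 19 or 20 for each gene, and 0 changed direction. The shallowest library was 6 h replicate A of Ribo-seq, with 460860 reads.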
